A study of Mus musculus with 25 samples.

Results

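The oral-nasal contrast of gene expression was compared between the anterior and the posterior palatal shelf of the E14.5 mouse embryo. For each gene the oral minus nasal difference of log2(RPKM + 0.1) was taken in the anterior palate, and the same difference in the posterior palate was subtracted from it. RPKM is a read count scaled to the length of the gene model and the depth of the library. A positive value therefore means that oral expression, relative to nasal, was higher in the anterior palate, and a negative value that it was higher in the posterior palate. This needed 13 of the 25 laser capture RNA-seq libraries, with 3 of the anterior oral compartment, 4 of the anterior nasal, 3 of the posterior oral and 3 of the posterior nasal. All came from wild type CD1 mice at E14.5, a stage when the shelves have just met, and no allele or agent distinguished the groups. Compartments were cut from tissue sections, so that each library is a mixture of the cells within the cut outline. In such bulk libraries, fewer cells of a type and less RNA per cell cannot be told apart. The test took in genes that reached 5 RPKM in 3 or more of these libraries, 11442 of the 37406 listed.

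The palatal shelves grow out of the maxillary processes, hang beside the tongue, and then lift and meet at the midline. Their anterior portion forms much of the bony hard palate and their posterior portion contributes to the soft palate. The oral side faces the mouth and carries the rugae, where Sonic hedgehog is made by the epithelium. The nasal side faces the nasal passage, and intramembranous palatal bone condenses within the shelf mesenchyme. BMP, WNT, FGF and Hedgehog signals pass between epithelium and mesenchyme on both sides, and several transcription factors of the shelf are restricted to its front or its back.

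Implied depth, worked out from the steps between low RPKM values, had its lowest value at 1.64 M and its highest at 6.56 M reads (M, 1e6), and the median library had 3.49 M. These totals are not measured, but the largest for which the shortest gene models had whole lengths. They lie far below the average of reads per sample that the paper states, and the difference was not examined. On these totals a gene model of 2000 bases at 5 RPKM would rest on 16.4 to 65.6 reads. The shallowest library, anterior oral 1, also had the largest scatter around its compartment mean, with a residual SD of 0.847 on the log2 scale against 0.322 to 0.61 in the other libraries. Alignment names of the study place the 13 libraries in 5 sequencing runs, called A to E here. Runs A and B held anterior libraries only and runs D and E posterior libraries only, while run C held 1 library of each compartment. The labels number replicates but do not tie libraries to embryos. Oral and nasal libraries may share an embryo. The p-values treat all libraries as separate, so they may then be too large or too small. Mesenchyme markers, including Prrx1, Twist1 and Pdgfra, summed to between 1208 and 1816 RPKM in every library, and none of the 12 was at 0 in a compartment.

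Pcdh10, Unc5c and Cxcl13, which passed the test for a changed contrast, each have a listed upstream sequence in RefSeq on GRCm38.p6. They are shown with that of Ibsp, the bone sialoprotein gene that had the largest posterior oral-nasal difference among the called genes of the posterior palate. Each run is the 250 bases before the listed start on the gene's strand, and capitals mark the RUNX core TGTGGT or its reverse complement ACCACA.
Cxcl13, chr5:95956689-95956938, plus strand: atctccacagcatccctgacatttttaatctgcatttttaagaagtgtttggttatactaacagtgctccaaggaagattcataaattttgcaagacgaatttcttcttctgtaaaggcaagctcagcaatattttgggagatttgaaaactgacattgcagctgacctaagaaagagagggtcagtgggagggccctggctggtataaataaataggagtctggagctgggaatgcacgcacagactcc
Pcdh10, chr3:45378148-45378397, plus strand: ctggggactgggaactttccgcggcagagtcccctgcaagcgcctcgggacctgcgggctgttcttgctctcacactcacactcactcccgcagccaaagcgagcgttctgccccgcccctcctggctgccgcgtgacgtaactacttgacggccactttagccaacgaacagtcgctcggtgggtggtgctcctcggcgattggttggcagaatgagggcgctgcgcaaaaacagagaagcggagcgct
Unc5c, chr3:141465314-141465563, plus strand: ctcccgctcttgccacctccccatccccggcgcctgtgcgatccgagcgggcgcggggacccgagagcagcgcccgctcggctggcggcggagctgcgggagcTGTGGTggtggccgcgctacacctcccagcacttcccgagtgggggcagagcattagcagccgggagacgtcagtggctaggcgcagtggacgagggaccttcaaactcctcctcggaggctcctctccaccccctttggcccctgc
Ibsp, chr5:104299037-104299286, plus strand: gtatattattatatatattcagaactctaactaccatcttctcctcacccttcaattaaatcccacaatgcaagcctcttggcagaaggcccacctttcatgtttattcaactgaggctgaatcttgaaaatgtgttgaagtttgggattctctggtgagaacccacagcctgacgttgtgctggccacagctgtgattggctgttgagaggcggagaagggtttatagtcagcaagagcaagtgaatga
The RUNX core occurred 1 time in the Unc5c window and not in the other 3 windows, read on both strands. Among all 32851 listed windows of this length, 14% held it. The homeodomain core TAATTA, which reads the same on both strands, was in none of the 4 windows and in 4.84% of all windows.

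The contrast changed between the regions for 4 genes at an adjusted p under 0.05 (limma, Benjamini-Hochberg over all 11442 genes), or 0.035% of those tested. They included Pcdh10, Unc5c and Cxcl13, and all 4 values were negative. The count was 0 without anterior oral 2, posterior nasal 3, posterior oral 1 or posterior oral 2, it was 1 without anterior nasal 4, posterior nasal 1 or posterior oral 3, and it was 2 without anterior nasal 1, anterior nasal 3 or posterior nasal 2. With the replicate number as a block the count was 0, with a lowest adjusted p of 0.108. Without the shallow anterior oral 1 it was again 4, of which 2 were shared. At an unadjusted p under 0.05 there were 387 genes, 3.38% of those tested, against the 5% that such a threshold gives where no gene differs. Of these, 250 were in the posterior-oral direction (2.18% of genes tested) and 137 in the anterior-oral direction (1.2%).

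Each region on its own gave more calls than the difference between them. In the anterior palate 12 genes were called (0.105% of genes tested), 1 higher in the oral and 11 higher in the nasal compartment (2 and 7 after quantile normalization). In the anterior palate, deviations from the compartment means correlated across genes at 0.231, 0.246 and 0.113 between oral and nasal libraries of the same number. The pair at 0.231 also shared run A. Pairs of different number ran from -0.332 to 0.439, the highest being anterior nasal 3 with anterior oral 2, both of run B. With the replicate number as a block 4 genes were called in the anterior palate. In the posterior palate 85 genes were called (0.743%), 50 higher in the oral and 35 in the nasal compartment. The median standard error was 0.314 for the anterior difference, 0.336 for the posterior difference and 0.46 for the contrast between them. The anterior count was 0 without anterior oral 2, 2 without anterior nasal 2, 4 without anterior nasal 3 and 7 without posterior nasal 1. The posterior count was 27 without posterior nasal 3, 29 without posterior oral 2, 37 without posterior oral 3, 40 without posterior nasal 1, 46 without posterior oral 1 and 56 without posterior nasal 2. Across the 11442 genes the anterior and posterior differences had a Pearson r of 0.231 and a Spearman rho of 0.145, given as a description since genes are not independent.

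**Figure D1:**
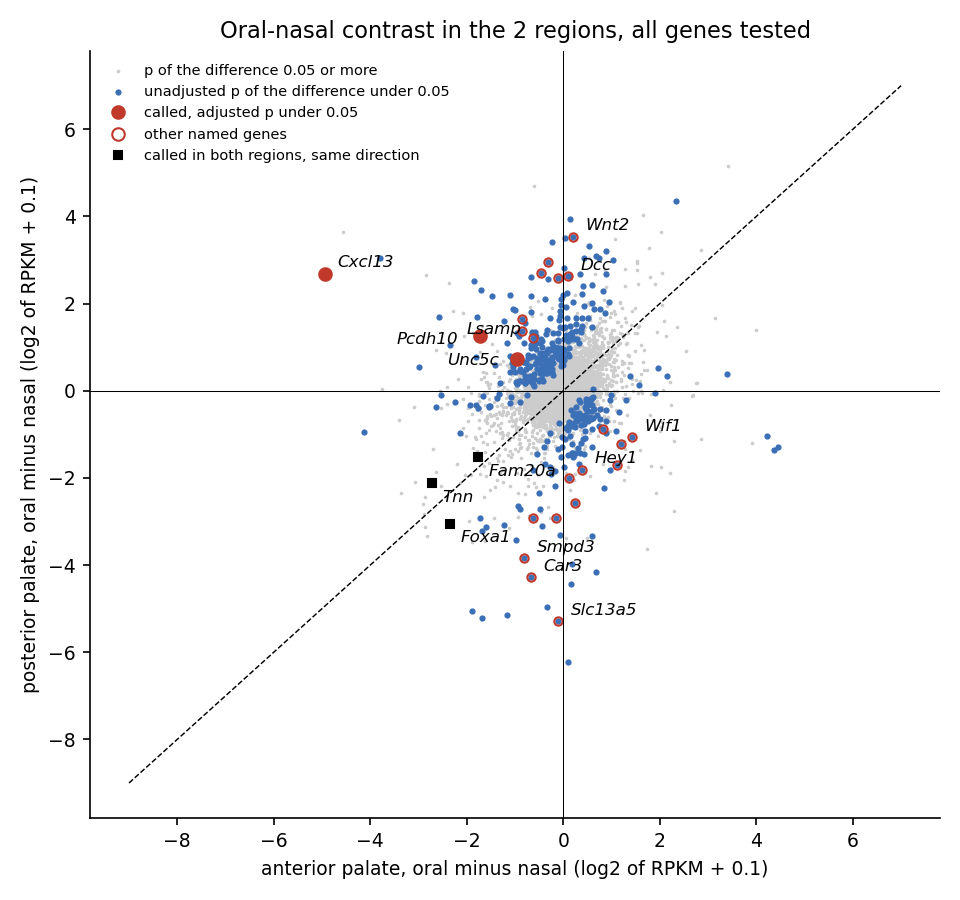
Each point is 1 of the 11442 genes tested, with the oral minus nasal difference in log2(RPKM + 0.1) of the anterior palate on the x axis and of the posterior palate on the y axis. On the dashed line both regions have the same difference, and Pcdh10, Unc5c and Cxcl13 (filled red) lie in the upper left, with nasal higher in the anterior palate and oral higher in the posterior palate.

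Pcdh10 encodes a protocadherin, a cell adhesion molecule of the cadherin superfamily, at mm9 chromosome 3 from 45182320 to 45238501. It was at 1.03, 0.929 and 1.78 RPKM in the anterior oral and at 5.29, 3.09, 4.83 and 4.01 RPKM in the anterior nasal libraries. In the posterior palate it was at 6.39, 9.78 and 6.94 RPKM in the oral and at 2.40, 3.87 and 3.21 RPKM in the nasal libraries. It was lowest in the anterior oral and highest in the posterior oral compartment, with no overlap between oral and nasal libraries in either region. The anterior difference was -1.73 (adjusted p = 0.0477), the posterior difference 1.26 (adjusted p = 0.0981), and the contrast -2.99 ± 0.41 (SE, adjusted p = 0.0385). The contrast was -2.50 within run C. Across the fits that left out 1 library it lay between -3.26 and -2.81, with adjusted p from 0.0226 to 0.150, and stayed called without anterior nasal 2 (-3.14) or without anterior oral 3 (-3.26).

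Unc5c encodes a netrin receptor that mediates repulsion of growing axons, at mm9 chromosome 3 from 141128528 to 141497886. Its levels were 16.05, 15.6 and 17.9 RPKM in the anterior oral and 32.7, 31.7, 30.1 and 33.8 RPKM in the anterior nasal libraries. They were 18.9, 23.8 and 18.9 RPKM in the posterior oral and 11.5, 11.9 and 13.2 RPKM in the posterior nasal libraries. The anterior nasal libraries were the highest and the posterior nasal libraries the lowest, while the oral libraries of both regions lay between them. The contrast was -1.69 ± 0.25 (SE, adjusted p = 0.0463) and -1.62 within run C. It was made of an anterior difference of -0.95 (adjusted p = 0.076) and a posterior difference of 0.74 (adjusted p = 0.103), neither of which passed alone. The estimate moved only between -1.75 and -1.58 when 1 library was left out, but the adjusted p then lay between 0.0618 and 0.181 and the call was lost in all 13 fits.

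Cxcl13 encodes a chemokine that attracts B cells, at mm9 chromosome 5 from 96385958 to 96390087. It was at 5.57, 16.7, 15.9 and 15.9 RPKM in the anterior nasal libraries and at 1.05, 0.494 and 0 RPKM in the anterior oral libraries. In the posterior palate it was at 0.292, 0.752 and 0.700 RPKM in the oral libraries and was listed at 0 in all 3 nasal libraries. Its appreciable expression was thus in the anterior nasal compartment, and it passed the filter on low values through that compartment. The anterior difference was -4.93 (adjusted p = 0.0179), and the contrast passed the test (adjusted p = 0.0326), but no fold change is given for the contrast because 1 compartment is at 0. Across the fits that left out 1 library the adjusted p lay between 0.00608 and 0.149. The call was lost in 9 of 13 fits and stayed without anterior nasal 1 or 2 and without anterior oral 1 or 3.

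**Figure D2:**
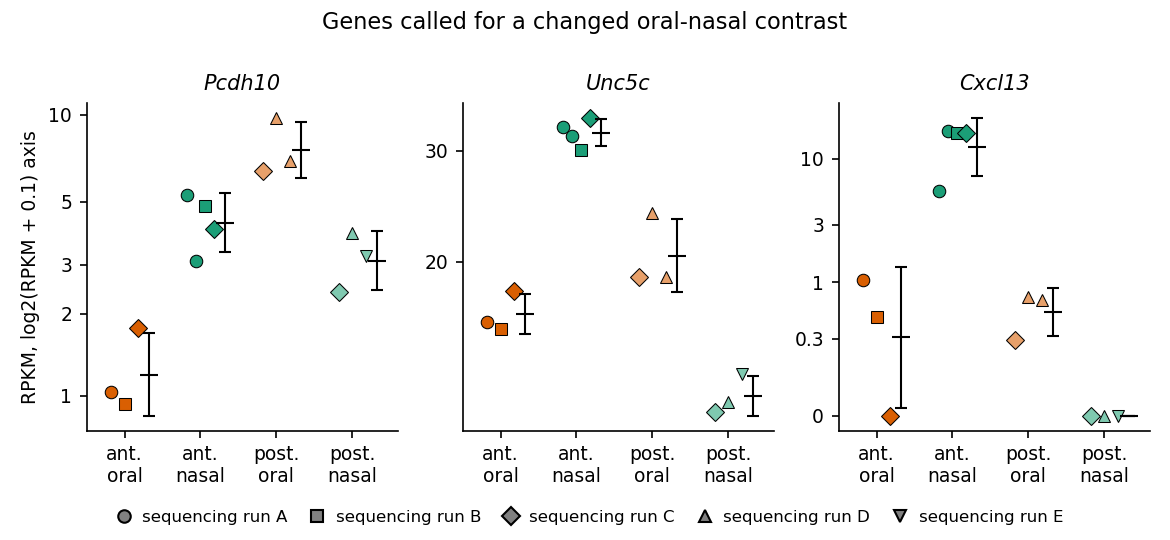
Each panel gives the RPKM of 1 called gene in every library on a log2(RPKM + 0.1) axis, by compartment, with the symbol showing the sequencing run and the bar the mean ± SD on that axis (n = 3, 4, 3 and 3). Pcdh10 is highest in the posterior oral compartment, Unc5c and Cxcl13 in the anterior nasal compartment.

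Read along the other axis, Pcdh10 differed on the oral side, with an anterior minus posterior difference of -2.56 (adjusted p = 0.00208), while its nasal difference was 0.43 (adjusted p = 0.566). Unc5c and Cxcl13 differed on the nasal side, at 1.38 for Unc5c (adjusted p = 0.00125) and with an adjusted p of 0.000485 for Cxcl13, while the oral differences were -0.31 (adjusted p = 0.679) and -0.66 (adjusted p = 0.744). Over all genes, 70 were called between anterior and posterior in the oral compartments (0.612% of genes tested), 30 higher in the anterior and 40 in the posterior palate, and 222 in the nasal compartments (1.94%). After centring each sample on its median the oral calls split into 38 and 36, and after quantile normalization into 33 and 27. The oral count was 21, 23 and 42 without posterior oral 1, 2 and 3, 44, 34 and 35 without anterior oral 1, 2 and 3, and 44 without anterior nasal 3. The nasal count was 119, 132 and 117 without posterior nasal 1, 2 and 3, 144 without anterior nasal 1 and 406 without anterior oral 1. Runs A, B, D and E each held libraries of 1 region, so these differences along the axis share their samples with the run.

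Beyond the 4 called genes, the 8 next genes in the posterior-oral direction and the 12 first genes in the anterior-oral direction by p were examined, and none of these 20 passed the test. Among all 24 genes the oral and nasal values stood apart in both regions with opposite direction for 9, against 39 such genes among all tested (0.341%). The posterior difference was the larger one for 19 of the 24, beside 6049 of all 11442 genes, and for 0 of the 4 called genes. All 24 kept the sign of their contrast within run C. The anterior and posterior differences are the parts of the contrast by which these genes were chosen, so that these counts are a description of them.

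The most common pattern in the anterior-oral direction was high expression in the posterior nasal compartment alone. Smpd3, which encodes a neutral sphingomyelinase needed for bone mineralization, was at 42.0, 20.1 and 27.2 RPKM in the posterior nasal libraries. Its levels were 1.97, 1.63 and 2.11 RPKM in the posterior oral, 2.30, 1.78, 2.67 and 3.49 RPKM in the anterior nasal and 2.64, 0.934 and 1.04 RPKM in the anterior oral libraries. The posterior nasal libraries thus stood above all the others. The posterior difference was -3.84 (adjusted p = 0.00295), the anterior difference -0.81 (adjusted p above 0.99) and the contrast 3.03 ± 0.53 (SE, adjusted p = 0.103).

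Slc13a5, a citrate transporter gene, had the largest contrast of the group, 5.19 ± 0.87 (SE, adjusted p = 0.103). It was at 19.3, 8.76 and 10.7 RPKM in the posterior nasal libraries and at no more than 1.56 RPKM in the other 10. Car3, which encodes a carbonic anhydrase, was at 10.8, 7.58 and 7.60 RPKM in the posterior nasal libraries and at no more than 0.654 RPKM in the other 10, with a contrast of 3.61 ± 0.74 (SE, adjusted p = 0.165). Both genes were near the detection limit outside the posterior nasal compartment. Sgms2, a sphingomyelin synthase gene, was at 20.03, 13.9 and 20.5 RPKM there and at 1.89 to 5.20 RPKM elsewhere, and its contrast was 2.29 ± 0.42 (SE, adjusted p = 0.103). Lgi2 was at 13.8, 7.73 and 7.94 RPKM there and at 1.09 to 3.81 RPKM elsewhere. Rbp4, which encodes the retinol carrier of plasma, was at 13.5, 17.5 and 12.9 RPKM there and at 1.25 to 5.78 RPKM elsewhere, with a contrast of 2.77 ± 0.61 (SE, adjusted p = 0.229). The posterior oral-nasal differences of these 6 genes, which are part of the contrast they were chosen by, lay between -5.29 and -2.58. Smpd3, Slc13a5, Car3 and Lgi2 reached 5 RPKM in the posterior nasal libraries alone, and so passed the filter on low values only through the compartment in which they were high.

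Of 14 tested osteoblast genes, 6 had an unadjusted p under 0.05 for the contrast, all in the anterior-oral direction, and none passed the adjusted test. That is 42.9% of the list against 3.38% of all genes tested. The median over the list was -0.849 for the anterior and -2.24 for the posterior oral minus nasal difference, beside -0.0141 and -0.00713 over all genes tested. In the posterior palate 7 members were called higher in the nasal compartment, and in the anterior palate 2, Runx2 and Tnn. Of the 24 listed osteoblast genes, 14 passed the filter, and 3 of those, Dlx3, Panx3 and Smpd3, passed it only through the posterior nasal libraries. These 3 are among the 6 with an unadjusted p under 0.05. Of the 14, 8 are also among the oral or nasal genes that the study named on these samples, so the list is not independent evidence of a direction.

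Ibsp was at 215, 135 and 152 RPKM in the posterior nasal libraries and at 14.9, 1.00 and 0.555 RPKM in the posterior oral libraries. In the anterior palate it was at 3.81, 14.1, 3.63 and 31.0 RPKM in the nasal and 14.0, 4.69 and 12.96 RPKM in the oral libraries, which overlapped. The contrast was 6.32 ± 1.46 (SE, adjusted p = 0.253) and within run C, where the posterior oral library was the one at 14.9 RPKM, it was 2.596. Sp7, the zinc finger factor that commits cells to the osteoblast lineage, was at 108, 56.5 and 83.6 RPKM in the posterior nasal libraries and at 0.962 to 11.5 RPKM in the other 10. Its contrast was 1.84 ± 0.69 (SE, adjusted p above 0.99). Panx3, a channel gene of bone and cartilage, was at 58.5, 55.9 and 91.7 RPKM in the posterior nasal libraries and at no more than 4.86 RPKM elsewhere, Ifitm5 at 90.2, 61.2 and 84.6 RPKM there and at no more than 32.01 RPKM elsewhere, and the homeobox gene Dlx3 at 29.5, 6.58 and 8.58 RPKM there and at no more than 3.22 RPKM elsewhere. The contrasts of these 3 genes were 3.52, 1.83 and 3.97. Ibsp, Sp7, Panx3, Ifitm5 and Dlx3 were named after their values were seen.

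Runx2, the upstream regulator of Sp7, had another pattern. It was at 17.95, 15.0 and 12.4 RPKM in the anterior oral, 34.3, 63.1, 50.3 and 46.4 RPKM in the anterior nasal, 53.2, 42.1 and 39.1 RPKM in the posterior oral and 97.1, 96.7 and 109 RPKM in the posterior nasal libraries. Nasal libraries were above oral ones in both regions without overlap. The anterior difference was -1.66 (adjusted p = 0.0179), the posterior difference -1.18 (adjusted p = 0.0562), and the contrast -0.48 (95% interval -1.22 to 0.26). The osteoblast list, of which 24 genes are in the table, summed to 1343 to 1678 RPKM in the posterior nasal libraries, 669.8 to 870.5 in the posterior oral, 811 to 924.3 in the anterior nasal and 608.8 to 734.6 in the anterior oral libraries, with 2 members at 0 in every posterior nasal library.

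**Figure D3:**
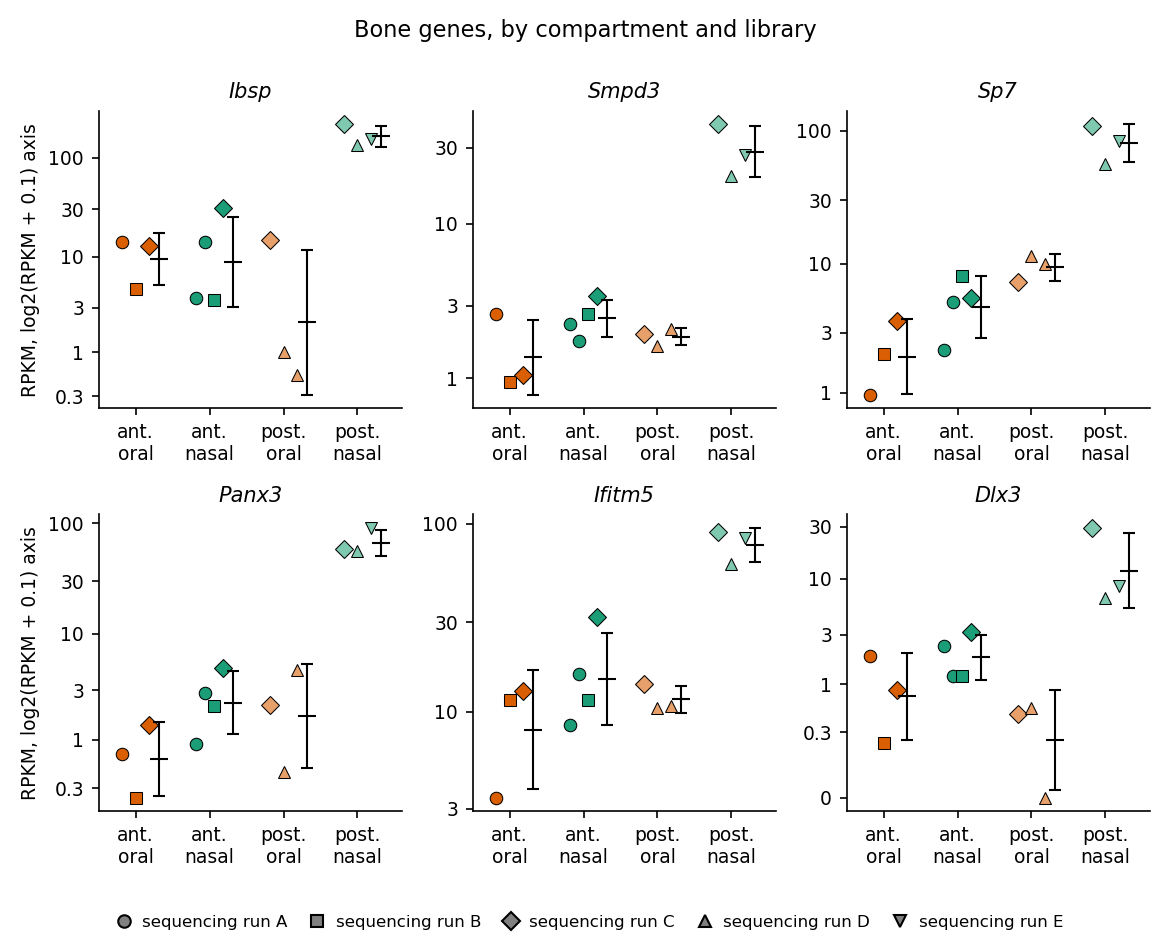
RPKM of 6 bone genes in every library on a log2(RPKM + 0.1) axis, by compartment, with the symbol showing the sequencing run and the bar the mean ± SD on that axis. For each gene the 3 posterior nasal libraries lie above the other 10, and for Ibsp 1 posterior oral library (run C) lies at 14.9 RPKM beside 1.00 and 0.555 RPKM in the other 2.

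Cartilage genes had members in both directions. Of 13 tested, 3 had an unadjusted p under 0.05 in the anterior-oral and 2 in the posterior-oral direction. That is 38.5% of the list against 3.38% of all genes tested, and none passed the adjusted test. The study had named 1 of the 13, Sox6, on these samples. Acan and Fgfr3, which are 2 of the 3 in the anterior-oral direction, passed the filter on low values through the posterior nasal libraries alone. Sox6, a SOX factor of chondrocyte differentiation, was at 25.2, 23.2 and 31.5 RPKM in the posterior nasal libraries and at 0.797 to 8.98 RPKM elsewhere, with a contrast of 2.24 ± 0.74 (SE, adjusted p = 0.823). Sox9, the factor that starts cartilage formation, had a contrast of -1.24 instead, with 12.1, 19.3 and 34.4 RPKM in the anterior oral, 35.6 to 70.7 RPKM in the anterior nasal, 38.8 to 56.8 RPKM in the posterior oral and 45.6 to 61.4 RPKM in the posterior nasal libraries. For Sox9 the compartment that stood apart was the anterior oral one. The list, of which 17 genes are in the table, summed to 290.5 to 366.5 RPKM in the posterior nasal and 118 to 126.7 RPKM in the anterior oral libraries.

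A further group in the anterior-oral direction had opposite differences in the anterior and posterior palate. Wif1, which encodes a secreted WNT inhibitor, was at 33.7, 21.4 and 22.0 RPKM in the anterior oral and 14.4, 6.54, 9.84 and 8.10 RPKM in the anterior nasal libraries. In the posterior palate it was at 5.29, 8.62 and 9.36 RPKM in the oral and 15.4, 17.0 and 15.3 RPKM in the nasal libraries. Oral and nasal libraries did not overlap in either region, with oral higher in the anterior and nasal higher in the posterior palate. The contrast was 2.49 ± 0.43 (SE, adjusted p = 0.103), from an anterior difference of 1.42 (adjusted p = 0.152) and a posterior difference of -1.07 (adjusted p = 0.229).

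Wisp1, a matricellular gene downstream of WNT signaling, had the same arrangement, with 13.7, 11.6 and 8.24 RPKM in the anterior oral, 2.98 to 6.68 RPKM in the anterior nasal, 6.001 to 10.7 RPKM in the posterior oral and 23.0, 17.0 and 16.1 RPKM in the posterior nasal libraries. Its contrast was 2.40 ± 0.44 (SE, adjusted p = 0.103). Fam101b did not overlap in either region as well, at 23.2 to 46.1 RPKM in the anterior oral against 12.3 to 20.02 RPKM in the nasal libraries, and at 11.2 to 14.6 RPKM in the posterior oral against 23.6 to 24.7 RPKM in the nasal libraries. Its contrast was 1.71 ± 0.38 (SE, adjusted p = 0.233). Nmb, which encodes the peptide neuromedin B, was at 7.33, 5.32 and 9.64 RPKM in the anterior oral and 1.32, 4.90, 2.98 and 5.79 RPKM in the anterior nasal libraries, which overlapped, and at 2.51 to 3.97 RPKM in the posterior oral and 8.81 to 11.6 RPKM in the posterior nasal libraries. Its contrast was 2.82 ± 0.62 (SE, adjusted p = 0.229).

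For Hey1 and Pax3 the posterior oral compartment was the low one. Hey1, a transcriptional repressor that responds to Notch, was at 5.98, 3.04 and 6.38 RPKM in the posterior oral libraries and at 9.64 to 20.9 RPKM in the other 10, and its contrast was 2.20 ± 0.41 (SE, adjusted p = 0.103). Pax3, a paired box factor of the neural crest, was at 3.00, 2.26 and 3.12 RPKM in the posterior oral, 10.8, 13.4 and 10.1 RPKM in the posterior nasal and 23.4 to 50.8 RPKM in the anterior libraries, where oral and nasal values overlapped. Its posterior difference was -1.999 (adjusted p = 0.00948), its anterior difference 0.12, and its contrast 2.12 ± 0.40 (SE, adjusted p = 0.103). Pax3 was also called along the axis on both sides, at 3.82 for the oral (adjusted p = 9.47e-05) and 1.70 for the nasal compartments (adjusted p = 0.00641).

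In the posterior-oral direction several genes were low in the posterior nasal compartment. Wnt2, a WNT ligand gene, was at 8.12, 11.2 and 8.45 RPKM in the anterior oral, 9.48, 8.75, 8.80 and 5.35 RPKM in the anterior nasal, 2.87, 5.65 and 4.49 RPKM in the posterior oral and 0.0779, 0.491 and 0.377 RPKM in the posterior nasal libraries. The anterior compartments overlapped and the posterior ones did not. Its anterior difference was 0.21, its posterior difference 3.54 (adjusted p = 0.00504) and its contrast -3.33 ± 0.57 (SE, adjusted p = 0.103). The posterior nasal values were near the pseudocount of 0.1, so the size of the contrast depends on it. Across the alternative settings the contrast of Wnt2 lay between -3.81 and -1.81.

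Dcc, the netrin receptor that pairs with UNC5 proteins, was at 1.67, 1.72 and 1.56 RPKM in the posterior nasal libraries and at 9.63, 11.8 and 10.9 RPKM in the posterior oral libraries. In the anterior palate it was at 6.57, 10.5 and 6.24 RPKM in the oral and 12.2, 4.47, 8.96 and 5.15 RPKM in the nasal libraries. The posterior difference was 2.63 (adjusted p = 0.00654) and the contrast -2.55 ± 0.47 (SE, adjusted p = 0.103). Ppfia2, which encodes a liprin of presynaptic sites, was at 0.503 to 1.45 RPKM in the posterior nasal and 5.78 to 8.74 RPKM in the posterior oral libraries, and at 2.26 to 6.68 RPKM in the anterior libraries. Its contrast was -3.26 ± 0.55 (SE, adjusted p = 0.103). Fam83b was at 0.989 to 2.25 RPKM in the posterior nasal libraries and at 5.48 to 19.4 RPKM in the other 10.

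Other genes of this direction were high in the posterior oral compartment. Lrrc3b, a leucine-rich repeat gene, was at 22.8, 12.7 and 10.2 RPKM there and at 1.69 to 3.47 RPKM in the other 10 libraries, with a contrast of -2.69 ± 0.50 (SE, adjusted p = 0.103). Masp1, a complement protease gene that also matters for facial development, was at 6.44, 8.78 and 7.55 RPKM there and at 0.903 to 3.18 RPKM elsewhere, with a contrast of -2.49 ± 0.45 (SE, adjusted p = 0.103). Both passed the filter through the posterior oral libraries alone. Lsamp, a cell adhesion gene of the immunoglobulin superfamily, was at 8.03, 8.55 and 7.62 RPKM there, at 2.78 to 3.89 RPKM in the posterior nasal, at 4.00 to 6.03 RPKM in the anterior nasal and at 2.29 to 3.88 RPKM in the anterior oral libraries. Oral and nasal libraries of Lsamp did not overlap in either region. The same held for Bai3, an adhesion receptor gene, at 3.02 to 3.72 RPKM in the anterior oral and 4.55 to 9.35 RPKM in the anterior nasal libraries against 4.83 to 6.33 RPKM in the posterior oral and 1.497 to 2.61 RPKM in the posterior nasal libraries.

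**Figure D4:**
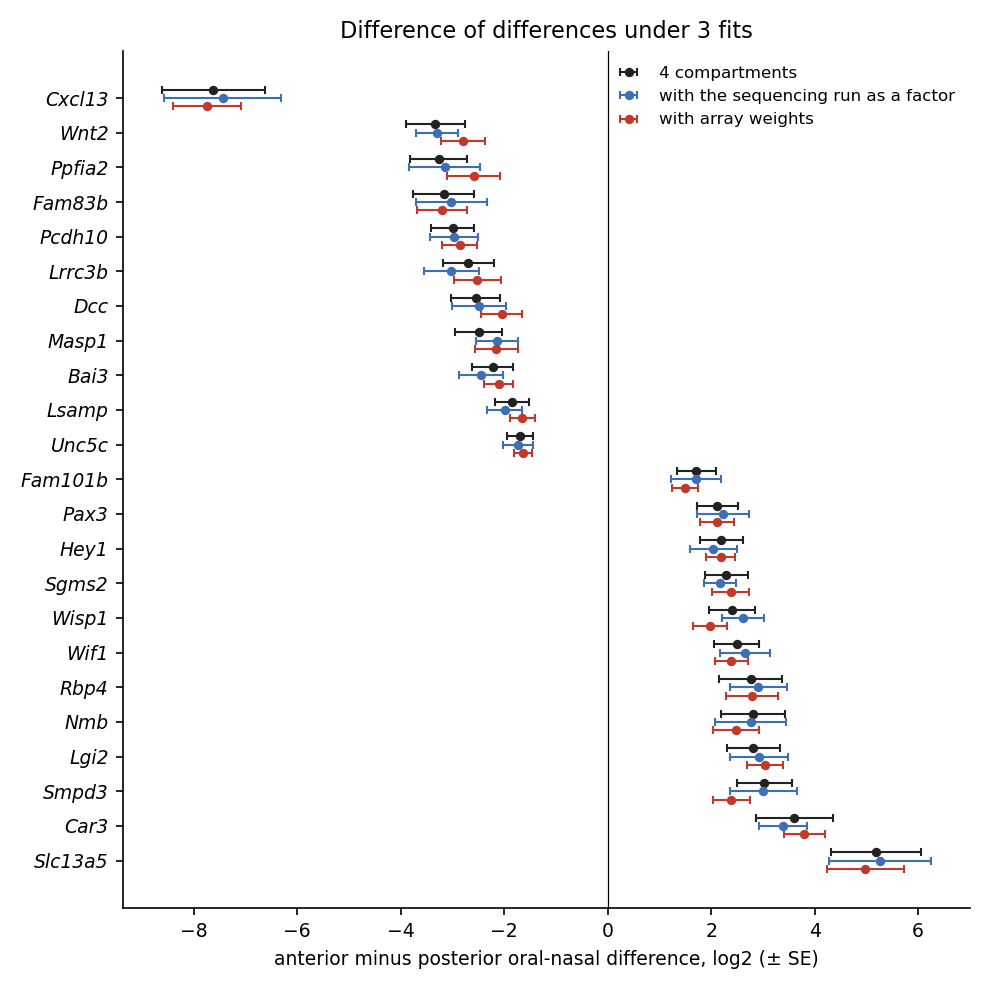
The contrast (anterior minus posterior oral-nasal difference, log2, ± SE) of 23 named genes in the fit of the 4 compartments (black), in the fit that adds the sequencing run as a factor (blue) and in the fit that weights each library by its scatter (red). Every estimate keeps its side of 0 in all 3 fits, which use the same libraries that chose the genes. The fit with the run calls none of the 23 and the weighted fit calls 22. In the weighted fit anterior oral 2 has the highest weight, 3.94.

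Of 30 tested cadherin and leucine-rich repeat adhesion genes, 13 had an unadjusted p under 0.05 in the posterior-oral direction and 0 in the other. That is 43.3% of the list against 3.38% of all genes tested, and Pcdh10 alone passed the adjusted test. The median contrast was -0.95, beside -0.0219 over all genes tested, with a median of -0.075 for the anterior and 1.11 for the posterior difference. Called members of the posterior palate were Lrrc3b, Lrrtm1 and Ncam2, all higher in the oral compartment. Ncam2, a neural cell adhesion gene, was at 30.1, 15.0 and 22.3 RPKM in the posterior oral and 4.14, 3.70 and 2.59 RPKM in the posterior nasal libraries, against 6.95 to 21.6 RPKM in the anterior oral and 8.53 to 13.5 RPKM in the anterior nasal libraries. Of the 30, 7 are also among the genes that the study named on these samples. Lrrc3b, which is among the 13, passed the filter on low values through the posterior oral libraries alone. List members that are named here and did not pass the test were chosen after their values were seen.

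Of 34 tested axon guidance genes, 11 had an unadjusted p under 0.05 in the posterior-oral and 2 in the anterior-oral direction. That is 38.2% of the list against 3.38% of all genes tested, and the study had named 3 of the 34 on these samples. Unc5c passed the adjusted test. Its relative Unc5d was at 5.82, 3.58 and 4.82 RPKM in the anterior oral and 16.8, 18.4, 14.3 and 24.7 RPKM in the anterior nasal libraries, and at 7.92 to 9.33 RPKM in the posterior oral and 8.34 to 13.5 RPKM in the posterior nasal libraries. For Unc5d the anterior difference was called (-1.94, adjusted p = 0.0178) and the contrast was -1.63 ± 0.36 (SE, adjusted p = 0.241). Unc5b, of the same family, went the other way, with a contrast of 1.87 ± 0.75 (SE) that did not pass the adjusted test. The semaphorin gene Sema3e was higher in the nasal libraries of both regions without overlap, with -2.15 in the anterior (adjusted p = 0.00804) and -0.97 in the posterior palate (adjusted p = 0.155). Its contrast was -1.19 (95% interval -1.96 to -0.41, adjusted p = 0.627).

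Of 56 tested homeobox and other patterning factors, 15 had an unadjusted p under 0.05 in the posterior-oral and 6 in the anterior-oral direction. That is 37.5% of the list against 3.38% of all genes tested, and none passed the adjusted test. Of the 56, 11 are also among the genes that the study named on these samples. Dlx3, counted here and among the osteoblast genes, passed the filter on low values through the posterior nasal libraries alone. Meox2, a homeobox factor, was at 78.8, 116 and 80.3 RPKM in the posterior oral and 38.0, 41.9 and 27.2 RPKM in the posterior nasal libraries, and at 4.93 to 12.2 RPKM in the anterior libraries. Tbx22, a T-box factor mutated in X-linked cleft palate, was at 24.7, 25.1 and 22.2 RPKM in the posterior oral, 15.2, 16.6 and 14.1 RPKM in the posterior nasal, 1.40 to 2.91 RPKM in the anterior oral and 3.11 to 7.06 RPKM in the anterior nasal libraries. Its contrast was -1.71 ± 0.42 (SE, adjusted p = 0.342). Pax9, a paired box factor required for palate growth, was at 41.6, 77.6 and 59.7 RPKM in the anterior oral and 88.8 to 106 RPKM in the anterior nasal libraries, against 95.8 to 145 RPKM in the posterior oral and 65.3 to 71.8 RPKM in the posterior nasal libraries. For Tbx22 and Pax9 the nasal libraries were higher in the anterior and the oral libraries in the posterior palate, without overlap, although their contrasts did not pass. Gata2 was at 17.6 to 25.4 RPKM in the anterior nasal libraries and at 1.94 to 5.98 RPKM in the other 9, and its anterior difference was called (-2.64, adjusted p = 0.025).

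Among signaling lists, BMP and GDF genes had 6 of 28 tested members with an unadjusted p under 0.05, all in the posterior-oral direction. That is 21.4% against 3.38% of all genes tested, and the study had named 5 of the 28 on these samples. Bmp4, a BMP ligand gene, was at 15.6, 18.6 and 8.03 RPKM in the posterior nasal and 44.6, 40.9 and 40.9 RPKM in the posterior oral libraries, and at 14.9 to 51.1 RPKM in the anterior libraries. Its contrast was -1.40 ± 0.55 (SE, adjusted p above 0.99). Bmp2 was at 27.3 to 34.7 RPKM in the anterior nasal libraries and at 12.4 to 20.9 RPKM in the other 9, with a contrast of -0.99 ± 0.30 (SE, adjusted p = 0.663). For Bmp4 the posterior nasal libraries lay below the posterior oral ones but overlapped the anterior nasal ones, and for Bmp2 the anterior nasal libraries lay above all the others.

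Wnt genes had 2 of 27 in the anterior-oral and 4 in the posterior-oral direction (22.2%), FGF genes 1 and 3 of 19 (21.1%), TGF-beta and activin genes 1 and 2 of 19 (15.8%), and Hedgehog genes 1 and 2 of 14 (21.4%). None of these lists had a member past the adjusted test, and the share over all genes tested was 3.38%. The study had named 1 of the Wnt, 2 of the FGF and 4 of the Hedgehog genes on these samples. Fgfr3, the FGF gene in the anterior-oral direction, is also in the cartilage list. It passed the filter on low values through the posterior nasal libraries alone. Fgf18 was at 2.14, 5.77 and 2.57 RPKM in the posterior nasal libraries and at 10.4 to 30.3 RPKM in the other 10, with a posterior difference of 2.39 (adjusted p = 0.0182) and a contrast of -1.98 ± 0.57 (SE, adjusted p = 0.534). Ptch1, the Hedgehog receptor and a target of the pathway, was at 64.7, 102 and 115 RPKM in the anterior oral and 26.2 to 46.6 RPKM in the anterior nasal libraries, while the posterior oral (58.0 to 82.6 RPKM) and nasal libraries (42.7 to 62.6 RPKM) overlapped. Its contrast was 1.05 ± 0.39 (SE, adjusted p above 0.99). Foxd1 had the lowest p of the Hedgehog list, with a contrast of -2.87 ± 0.82 (SE, adjusted p = 0.539).

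Retinoic acid genes had 2 of 15 in the anterior-oral direction and 0 in the other (13.3%, against 3.38% of all genes tested), Rbp4 with the lowest p. Matrix genes had 1 and 2 of 40 (7.5%), the lowest p being that of Kera, a keratan sulfate proteoglycan gene at 6.99 to 16.5 RPKM in the anterior nasal, 0.313 to 1.18 RPKM in the anterior oral, 4.03 to 22.4 RPKM in the posterior oral and 0.422, 7.64 and 0.205 RPKM in the posterior nasal libraries. Of 27 cell cycle genes none had an unadjusted p under 0.05, and the lowest p of that list was that of Ccne1 (contrast 0.76, adjusted p above 0.99). Of the 49 genes that the study had named for the oral or nasal compartments, 35 had an unadjusted p under 0.05 (71.4%), 24 in the posterior-oral direction. The 49 were chosen by the study on these samples. Among the 35, Cxcl13 passed the filter on low values through the anterior nasal libraries alone, and Nmbr through the anterior oral ones alone. Dlx3, Panx3 and Smpd3 passed it through the posterior nasal libraries alone, and Lrrc3b and Pdgfd through the posterior oral ones alone.

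**Figure D5:**
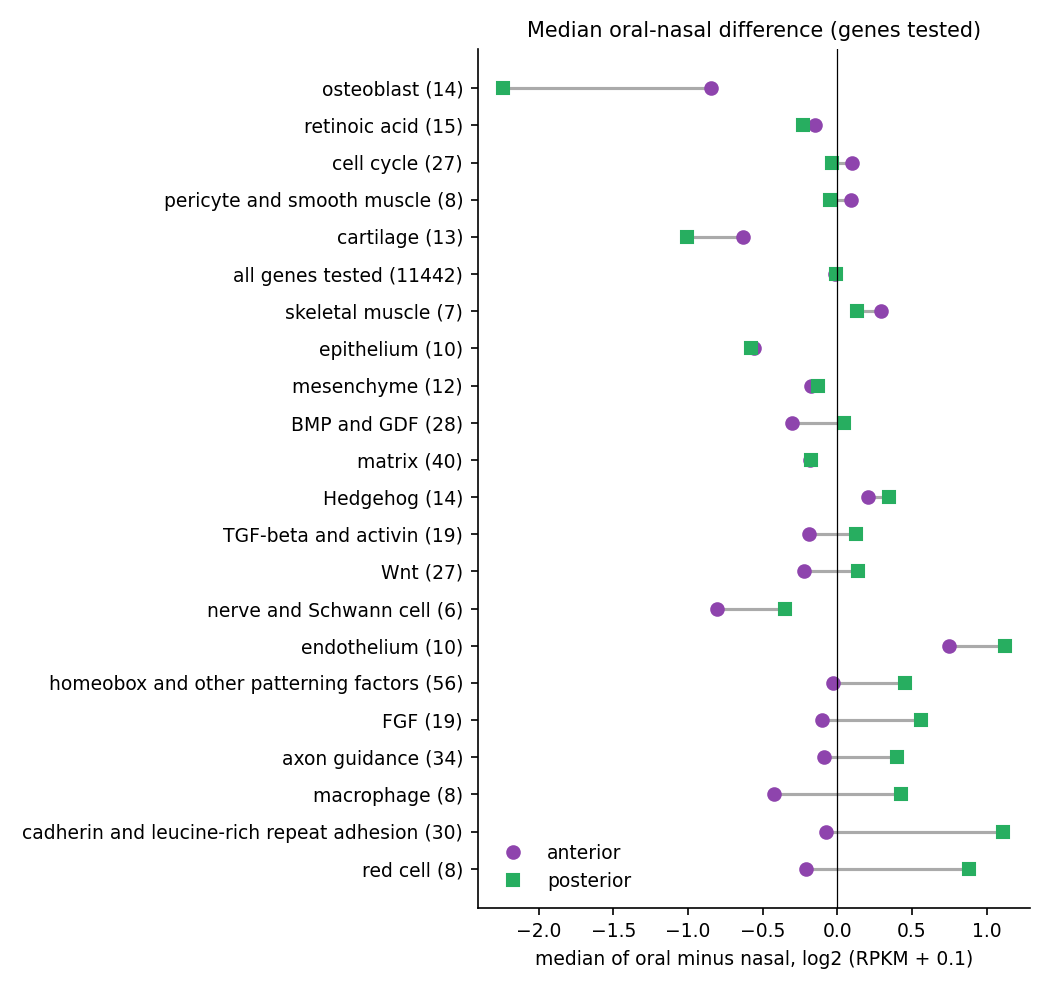
Median oral minus nasal difference in log2(RPKM + 0.1) over the tested genes of each list (number in parentheses), in the anterior (circle) and the posterior palate (square). The squares lie left of the circles for the osteoblast list (-2.24 against -0.849) and right of them for the adhesion list (1.11 against -0.075).

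Marker genes of other cell types were counted in the same way. None of 10 tested epithelium, 7 skeletal muscle, 10 endothelium, 8 red cell and 6 nerve and Schwann cell genes had an unadjusted p under 0.05, and 1 of 8 did in each of the macrophage (Fcer1g) and pericyte lists (Rgs5). That is 12.5% of each of these lists against 3.38% of all genes tested. Lists this short can hold no such member at that share, so the counts do not show an unchanged contrast. The median contrast was -0.749 over the macrophage and 0.0822 over the pericyte list, beside -0.0219 over all genes tested. Rgs5 was at 2.75, 3.78 and 3.78 RPKM in the posterior nasal libraries and at 9.46 to 34.1 RPKM in the other 10. The lowest p in the other lists was that of Krt8 for epithelium (contrast 1.30), Tnnc1 for skeletal muscle (-1.30), Tie1 for endothelium (-0.83), Hbb-y for red cells (-1.02), Nefm for nerve (2.30) and Osr2 for mesenchyme (-1.24), each with an adjusted p above 0.99. Nefm passed the filter on low values through the posterior nasal libraries alone. The summed levels varied between compartments. Red cell genes summed to 850.3 to 1196 RPKM in the posterior oral libraries and to 427.6 to 767.3 RPKM in the other 10, with a median contrast of -1.02 over the list. Endothelial genes summed to 170.1 to 285.3 RPKM in the oral and 84.29 to 175.3 RPKM in the nasal libraries of both regions, epithelial genes to 117.6 to 189.8 RPKM in the anterior nasal and 42.06 to 66.8 RPKM in the posterior oral libraries, and nerve genes to 24.22 to 70.53 RPKM overall. Whether red cell or vessel content bears on the genes that were high in the posterior oral compartment was not tested.

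Tnn, Fam20a and Foxa1 were called in both regions, each higher in the nasal compartment of both. Tnn, which encodes tenascin N of the skeletal matrix, was at 26.0, 40.7, 42.9 and 25.7 RPKM in the anterior nasal and 3.88 to 6.78 RPKM in the anterior oral libraries, and at 56.3, 67.5 and 68.1 RPKM in the posterior nasal and 9.70 to 22.0 RPKM in the posterior oral libraries. The differences were -2.72 and -2.12, and the interval of the contrast ran from -1.60 to 0.39. Foxa1, an endodermal and epithelial forkhead factor, was at 5.295 to 7.69 RPKM in the anterior nasal and 0.900 to 1.77 RPKM in the anterior oral libraries, and at 2.25 to 4.32 RPKM in the posterior nasal and 0.0914 to 0.452 RPKM in the posterior oral libraries, with differences of -2.35 and -3.05 and an interval of -0.51 to 1.92. For Fam20a, a gene of the secretory pathway needed for enamel formation, the differences were -1.77 and -1.52 and the interval ran from -1.16 to 0.67. These intervals leave room for changes of more than 1 log2 unit in at least 1 direction, so that equal contrasts are not shown.

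The sequencing run was the batch taken from the alignment names of the study, and no other part of those names was put in a model. With the run as a factor no gene was called for the contrast, and the lowest adjusted p was 0.294 with 5 residual degrees of freedom in place of 9. The estimates themselves moved little, to -2.97 ± 0.46 (SE) for Pcdh10 and -1.73 ± 0.29 for Unc5c. Deviations from the compartment means correlated across genes at 0.12 to 0.639 among the 4 run C libraries, and at -0.465 to 0.358 between libraries that shared a replicate number. Over all pairs of the same run, taken between compartments, the correlations lay between -0.0618 and 0.639 (median 0.236). Pairs of different runs lay between -0.516 and 0.358 (median -0.0734). A fit that weights each library by its scatter called 61 genes, including all 4. The lowest weight, 0.138, was that of anterior oral 1 and the highest, 3.94, that of anterior oral 2, with 0.684 for anterior oral 3. The anterior oral level in the weighted fit thus rests largely on anterior oral 2, without which the unweighted fit called 0 genes.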

How the data were processed

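The authors deposited RPKM values of 37406 genes for 25 libraries, made from laser captured palate compartments, NuGEN amplified RNA and single-end reads of 50 bases, with duplicate and multiply aligned reads removed and GeneSpring used for quantification. The submitters' processing notes name TopHat and mm9. No counts were used here, and no further scaling was added. On log2(RPKM + 0.1) a 4-group model was fitted to the 13 oral and nasal libraries with limma 3.58.1 (lmFit, contrasts.fit, eBayes) in R 4.3.3. Calls were made at a Benjamini-Hochberg adjusted p under 0.05 over 11442 genes. Log2 differences understate changes of low genes. The fit was tested on simulated data. No 2 libraries held identical values. Named genes were the 12 with the largest contrast in each direction among those called, filled by the lowest p, and the leading or called gene of each of 22 lists. A gene that passed the test is not reported here. Further list members were named after their values were seen. Members and lists were chosen with earlier results of these data known. Runs came from alignment names in the study's supplementary tables. Replicates are separate samples by their labels, and their spread may be partly technical. The replicate number was not in the model. Deviations of same-numbered oral and nasal libraries correlated at 0.231, 0.246 and 0.113 in the anterior palate and at 0.247, -0.0595 and 0.344 in the posterior palate, and across the regions at -0.465 to 0.358, so that a fit with the number as a block is given beside the counts it moves. Alternatives were other pseudocounts, scalings, filters, variance models, samples and the run. Python 3.11.15 with pandas 2.3.3 and matplotlib 3.10.9 was used for depth, sequences and figures.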

Additional observations from a re-analysis of the deposited data

Results flagged for a closer look

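The oral-nasal difference differed between the anterior and the posterior palate by limma's test of the contrast for 4 genes, Pcdh10, Unc5c and Cxcl13 among them. The contrast on the log2(RPKM + 0.1) scale was -2.993 for Pcdh10 and -1.69 for Unc5c. For Cxcl13 the fitted value was -7.622, which depends on the pseudocount and is no fold change, because the gene is listed at 0 in all 3 posterior nasal libraries.

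Among the 4 anterior nasal libraries, 2 of 37 genes examined had a library set apart from the rest by Dixon's test at the 95% level, which chance gives in about 1 of 20 groups. Cxcl13 was at 5.57 RPKM in anterior nasal 1 against 15.9 to 16.7 RPKM in the other 3. Lgi2 was at 1.353 RPKM in anterior nasal 4 against 2.66 to 2.92 RPKM in the other 3.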

How the results depend on the processing

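All 24 genes examined and the 91 list members with an unadjusted p under 0.05 kept the direction of their contrast in every alternative in which they were tested. They were chosen by their p in these same libraries, so the kept direction is a description and no independent support. The 1 reversal was Tnnc1, a muscle marker, at 0.5375 without anterior oral 1 (its contrast lay between -2.538 and 0.5375 over the fits without 1 library). The counts of calls depended on the setting, and the cause was not tested.

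The 4 contrast calls became 7 with a pseudocount of 1, 1 with a pseudocount of 0.01, 0 after quantile normalization (413 genes at an unadjusted p under 0.05), 0 with no filter on low values (791 of 22270 genes), 1 with a mean-variance trend, 61 with array weights (chosen after seeing the data, since the planned estimate did not converge), 10 with all 25 samples in one fit, 0 with the run as a factor (349 genes) and 0 to 5 when 1 library was left out. Among the 24 genes the counts were 7, 1, 0, 0, 1, 23, 8, 0 and 0 to 4 in the same order. With the replicate number as a block, the contrast had 0 calls, also among the 24 (386 genes at an unadjusted p under 0.05, lowest adjusted p 0.108). The same fit called 4 genes in the anterior palate, 76 in the posterior palate, 49 along the oral and 130 along the nasal axis. Only the anterior nasal compartment has a number 4, so anterior nasal 4 did not bear on the estimates of that fit. The block also groups anterior with posterior libraries, and the labels tie none of them to an embryo, so it is no test of pairing. The 12 anterior calls became 4 with no filter, 6 with the trend, 204 with weights, 4 with all 25 samples, 0 with the run (569 genes) and 0 to 13 without 1 library. The 85 posterior calls became 49 with no filter, 49 at a minimum of 10 RPKM, 337 with weights, 14 with the run and 27 to 125 without 1 library. The 70 oral calls along the axis became 37 with no filter, 163 with weights, 1 with the run and 21 to 73 without 1 library. The 222 nasal calls became 896 with weights, 23 with the run and 117 to 406 without 1 library. Centring each sample on its median gave 3 contrast calls.

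The implied depth of 1.64 to 6.56 M reads limits genes under about 1 RPKM most, and the 3 or 4 libraries per compartment limit every contrast, whose median standard error was 0.46.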
